A study of Mus musculus with 12 samples.

Results

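The serpins Serpinb1a, Serpini1, Serpine2 and Serpinf1 and the cystatins Cst3 and Cst6 were examined in aortic valve leaflets of mice carrying deletions of fibulin-4. These 6 protease inhibitor and inhibitor-like genes were taken by name from a deposited table of 41709 genes. They were picked with measured values in view, because several had their highest level in DKO leaflets. For these 6 genes, every difference between DKO and another group is therefore given as a description without a test, and tests are given only for pairs of groups without DKO.

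The mice were 2 months old and of strain C57BL/6J;129SvEv, with 3 libraries in each of the groups DKO, SMKO, ECKO and CTRL. The labels give only these codes; from what is known of the study, DKO mice lack fibulin-4 (Efemp2, a glycoprotein needed for elastic fibre assembly) in both endothelial and smooth muscle cells, SMKO mice lack it in smooth muscle cells, and ECKO mice lack it in endothelial cells. The labels name neither the promoters that drive the Cre recombinases nor the alleles carried by CTRL mice. Whole leaflets were cut out by laser microdissection from fixed, frozen and stained sections, and cDNA was amplified before sequencing. The libraries are called biological triplicates in the series description, but no animal is assigned to a library, so p-values measure the spread between these samples, part of which may be technical. Each value is an average over all leaflet cells, in which fewer cells of a type and less RNA per cell cannot be told apart.

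Serpins present a flexible loop as bait to a serine protease and, once it is cut, trap the enzyme in a covalent complex that is cleared from the tissue. Cystatins instead block the active site of cysteine proteases, chiefly the cathepsins, with a reversible wedge. In heart valves, elastic fibres and collagen are renewed slowly, and extracellular proteases and their inhibitors both act on that matrix. Among the serpins, Serpinb1a (ENSMUSG00000044734) is a mouse counterpart of the leukocyte elastase inhibitor, an intracellular inhibitor of neutrophil elastase, cathepsin G and proteinase 3. Serpini1 (neuroserpin) is a secreted inhibitor of tissue plasminogen activator known best from neurons. Serpine2 (protease nexin-1) inhibits thrombin, urokinase and plasmin at cell surfaces and in matrix. Serpinf1 (pigment epithelium-derived factor) has the serpin fold but inhibits no protease; it binds collagen and restrains vessel growth. Cst3 (cystatin C) is a widely secreted inhibitor of cathepsins, and Cst6 (cystatin M/E) inhibits legumain and some cathepsins and is known best from skin.

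The libraries held 74827 to 615665 counts, with a median of 321312. Of all genes, 16588 had a count and 6296 passed the filter on low counts. All 6 inhibitor genes passed, but the filter's level was reached by Cst6 in 4 libraries (3 DKO and 1 SMKO), by Serpinb1a in 7 and by Serpini1 in 11, so Cst6 was tested through its high groups. Efemp2 had 0, 0 and 0 counts in DKO libraries 1, 2 and 3, 4, 0 and 0 in SMKO libraries, 3, 15 and 8 in ECKO libraries, and 58, 23 and 9 in CTRL libraries. All 7 interstitial and all 8 endothelial markers examined had counts in every group. SMKO library 2 stood apart from SMKO 1 and 3 for 4 of the 6 genes, and results that rest on it are given with and without it.

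The levels of the 6 genes per unit of transcript length differed widely. By mean TPM (the authors' length-scaled abundance) over the 12 libraries, Cst3 had 6416 TPM and ranked 16th of the 6296 tested genes. Serpinf1 had 377 TPM at rank 255 and Serpine2 had 198 TPM at rank 475. Serpinb1a (38.0 TPM, rank 2282), Serpini1 (24.0 TPM, rank 3351) and Cst6 (11.9 TPM, rank 5056) lay in the middle and lower parts of the tested range. Cst3 held nearly all cystatin transcript, with 92.9 ± 0.593% of the summed TPM of 25 cystatin genes in DKO leaflets, 90.3 ± 1.81% in SMKO, 92.0 ± 1.22% in ECKO and 90.6 ± 3.29% in CTRL (SD, n = 3 each). The 4 serpins together held 28.1 ± 2.30% of the summed TPM of 63 serpin genes in DKO, 36.3 ± 7.76% in SMKO, 35.5 ± 2.26% in ECKO and 29.9 ± 1.19% in CTRL. Serpina3n, a secreted serpin of the antichymotrypsin group, Serpinh1, a collagen chaperone of the serpin fold, and Serpinb6a were the most abundant other serpins tested.

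**Figure D1:**
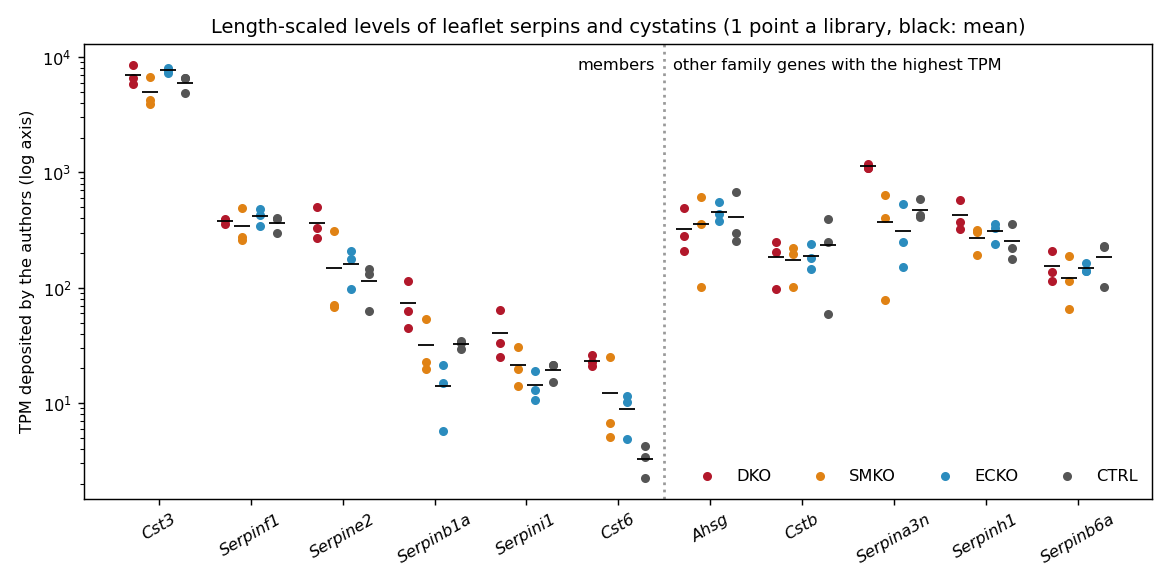
TPM in each library (log axis), coloured by group, for the 6 genes and for the 5 other serpin and cystatin family genes with the highest TPM; black dashes are group means. Cst3 stands above all others, near 6416 TPM over the 12 libraries, and Cst6 lies lowest, near 11.9 TPM.

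Promoter sequence was found in RefSeq (mouse build GRCm38.p6) for 4 of the 6 genes, Serpini1, Serpine2, Serpinf1 and Cst3. The 250 bases before each start are shown because these 4 genes sit at very different levels and differ in how they varied between libraries. Capitals mark matches to any of 5 motifs searched on both strands, which are GGGCGG (the GC box), CCAAT (the CCAAT box), TATAAA (the TATA box), TGANTCA (the AP-1 site) and GGAATG (the TEAD site). The windows are chr1:79858666-79858915 (minus strand) for Serpine2, chr3:75557243-75557492 (plus strand) for Serpini1, chr11:75422624-75422873 (minus strand) for Serpinf1 and chr2:148875513-148875762 (minus strand) for Cst3. Each is written 5′ to 3′ on the strand of its gene.
Serpine2: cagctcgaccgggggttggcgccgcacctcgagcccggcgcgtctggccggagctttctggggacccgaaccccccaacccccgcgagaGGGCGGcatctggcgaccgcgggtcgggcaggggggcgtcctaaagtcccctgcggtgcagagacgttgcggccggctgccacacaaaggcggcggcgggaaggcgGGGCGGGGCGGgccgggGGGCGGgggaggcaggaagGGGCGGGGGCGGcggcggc
Serpini1: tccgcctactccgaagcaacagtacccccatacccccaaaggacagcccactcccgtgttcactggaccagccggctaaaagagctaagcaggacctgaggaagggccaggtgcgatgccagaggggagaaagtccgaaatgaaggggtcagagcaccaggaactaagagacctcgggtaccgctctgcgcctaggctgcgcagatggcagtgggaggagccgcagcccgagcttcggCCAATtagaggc
Serpinf1: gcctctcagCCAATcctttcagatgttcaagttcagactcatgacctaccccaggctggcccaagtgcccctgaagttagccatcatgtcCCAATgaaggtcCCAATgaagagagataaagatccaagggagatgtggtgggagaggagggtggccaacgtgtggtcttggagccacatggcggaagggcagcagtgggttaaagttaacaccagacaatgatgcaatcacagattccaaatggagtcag
Cst3: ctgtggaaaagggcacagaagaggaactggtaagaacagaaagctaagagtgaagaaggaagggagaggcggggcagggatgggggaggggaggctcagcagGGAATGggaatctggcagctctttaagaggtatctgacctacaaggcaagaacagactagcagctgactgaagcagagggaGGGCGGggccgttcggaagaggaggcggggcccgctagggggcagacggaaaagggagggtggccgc

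The Serpine2 window was 78.8% G or C, against a median of 52.4% over all 32851 promoter windows, and held 6 GC box matches, of which neighbouring ones can share a base. It held no match to the other 4 motifs. The Cst3 window (59.6% G or C) had 1 GC box match and 1 match to GGAATG. The Serpini1 window (61.2%) had 1 CCAAT box match that began 12 bases before the start, and the Serpinf1 window (51.6%) had 3 CCAAT box matches. At least 1 match was present in 32.7% of all windows for GGGCGG, 33.8% for CCAAT, 12.4% for TATAAA, 6.75% for TGANTCA and 12.6% for GGAATG, so matches to the GC and CCAAT boxes were common. No match to different motifs overlapped. A match describes letters, not a bound factor.

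Serpine2, the inhibitor of thrombin and plasminogen activators, was high in every DKO library and in 1 SMKO library. As CPM (counts scaled by TMM to a common library size), Serpine2 had 435.8, 545.7 and 514.2 CPM in DKO libraries 1, 2 and 3, 78.3, 698.4 and 110.4 CPM in SMKO, 148.5, 237.8 and 190.5 CPM in ECKO, and 131.2, 153.0 and 118.9 CPM in CTRL. All 3 DKO libraries lay above all ECKO and CTRL libraries, whereas by CPM SMKO 2 was the highest of the 12 and SMKO 1 the lowest. By TPM, SMKO 2 ranked 3 of the 12, and CTRL 3 (62.3 TPM) lay below SMKO 1 (67.7 TPM). The described log2 fold change was 1.87 ± 0.69 (SE) for DKO against CTRL, 1.35 ± 0.67 against ECKO and 0.74 ± 0.68 against SMKO. The group order by mean was DKO (498.6 ± 56.5 CPM), SMKO (295.7 ± 349 CPM), ECKO (192 ± 44.7 CPM) and CTRL (134 ± 17.3 CPM), and the libraries of each pair of neighbours in this order overlapped.

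Serpini1, the inhibitor of tissue plasminogen activator, had 95.3, 125.5 and 70.5 CPM in DKO libraries, 28.9, 123.2 and 55.2 CPM in SMKO, 35.8, 21.9 and 36.7 CPM in ECKO, and 37.9, 40.2 and 52.0 CPM in CTRL. The DKO libraries were all above those of ECKO and CTRL and overlapped with SMKO through SMKO 2. Serpini1 was described at 1.29 ± 0.38 (log2 fold change ± SE) for DKO against CTRL, 1.74 ± 0.40 against ECKO and 0.71 ± 0.40 against SMKO.

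Serpinb1a, the elastase inhibitor, had 90.8, 111.5 and 62.2 CPM in DKO libraries, 23.8, 107.8 and 27.6 CPM in SMKO, 20.5, 5.84 and 20.7 CPM in ECKO, and 26.2, 30.9 and 59.4 CPM in CTRL. These levels rested on few reads, with 20, 56 and 15 counts in DKO, 14, 21 and 2 in SMKO, 4, 4 and 9 in ECKO, and 18, 20 and 8 in CTRL. DKO lay above ECKO and CTRL without overlap, and by CPM all ECKO libraries lay below those of every other group. By TPM, SMKO 3 (19.6) lay below ECKO 3 (21.3). DKO 3 exceeded CTRL 3 by a small margin only, 62.2 CPM against 59.4 CPM. The described log2 fold change was 1.46 ± 0.45 for DKO against CTRL, 2.73 ± 0.53 against ECKO, the widest of the 6 genes in that pair, and 0.89 ± 0.48 against SMKO. The paralogues Serpinb1b and Serpinb1c had 5 counts and 1 count over all libraries, with 0 in DKO. How the authors' counting treated any reads shared by these paralogues is not known.

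Serpinf1, the serpin without inhibitory activity, differed little between groups. It had 563.0, 424.2 and 597.1 CPM in DKO libraries, 564.8, 580.3 and 427.9 CPM in SMKO, 522.3, 547.2 and 456.9 CPM in ECKO, and 389.1, 415.8 and 564.6 CPM in CTRL. Every pair of groups overlapped, and the means ran only from 528 CPM in DKO to 456 CPM in CTRL, which is within 1 SD of either group (91.6 and 94.6 CPM). Its described log2 fold change was 0.22 ± 0.26 for DKO against CTRL, 0.05 ± 0.26 against ECKO and -0.01 ± 0.26 against SMKO.

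Set against Serpinf1 within the same library, Serpine2 gave a ratio that does not depend on scaling between libraries. The TPM of Serpine2 over that of Serpinf1 was 0.765, 1.27 and 0.851 in DKO libraries, 0.137, 1.19 and 0.255 in SMKO, 0.281, 0.430 and 0.412 in ECKO, and 0.333, 0.364 and 0.208 in CTRL. The DKO libraries and SMKO 2 lay between 0.765 and 1.27, and the other 8 libraries were all at 0.430 or below. The ratio reuses the DKO values behind the choice of Serpine2, so it is a description and no separate support. SMKO 2 also had the lowest Serpinf1 TPM of the 12 libraries (261), which raises its ratio.

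Cst6, the inhibitor of legumain, was the least abundant gene and had the largest described fold change of the 6 between DKO and CTRL. It had 59.0, 49.8 and 62.2 CPM in DKO libraries, 13.6, 97.6 and 13.8 CPM in SMKO, 30.7, 20.4 and 9.18 CPM in ECKO, and 5.83, 7.73 and 7.43 CPM in CTRL. All 3 CTRL libraries lay below every library of the other groups, and all 3 DKO libraries lay above ECKO. Cst6 rested on 13, 25 and 15 counts in DKO, 8, 19 and 1 in SMKO, 6, 14 and 4 in ECKO, and 4, 5 and 1 in CTRL. Pooled over libraries and without TMM scaling, these were 55.0 CPM in DKO (95% exact Poisson interval 41.2 to 71.9) and 6.81 CPM in CTRL (3.27 to 12.5), where the intervals cover counting error only. The described log2 fold change was 2.98 ± 0.63 for DKO against CTRL, 1.59 ± 0.54 against ECKO and 0.53 ± 0.54 against SMKO.

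Cst3, the abundant cathepsin inhibitor, had 3755, 2890 and 5328 CPM in DKO libraries, 3090, 3779 and 2457 CPM in SMKO, 4880, 3338.5 and 3292 CPM in ECKO, and 2569, 2731 and 3722 CPM in CTRL. All groups overlapped, and DKO 3 was the highest of the 12 libraries while DKO 2 lay below all ECKO libraries. Its described log2 fold change was 0.41 ± 0.36 for DKO against CTRL, 0.06 ± 0.35 against ECKO and 0.36 ± 0.36 against SMKO. With 178 to 2288 counts in a library, counting error was small beside this spread. The TPM of Cst3 relative to the summed TPM of 11 cysteine cathepsin and legumain genes was 3.70 ± 1.06 in DKO, 3.08 ± 0.354 in SMKO, 4.78 ± 0.556 in ECKO and 3.47 ± 0.554 in CTRL, so the transcript of this 1 inhibitor exceeded that of all its listed target proteases in each group.

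**Figure D2:**
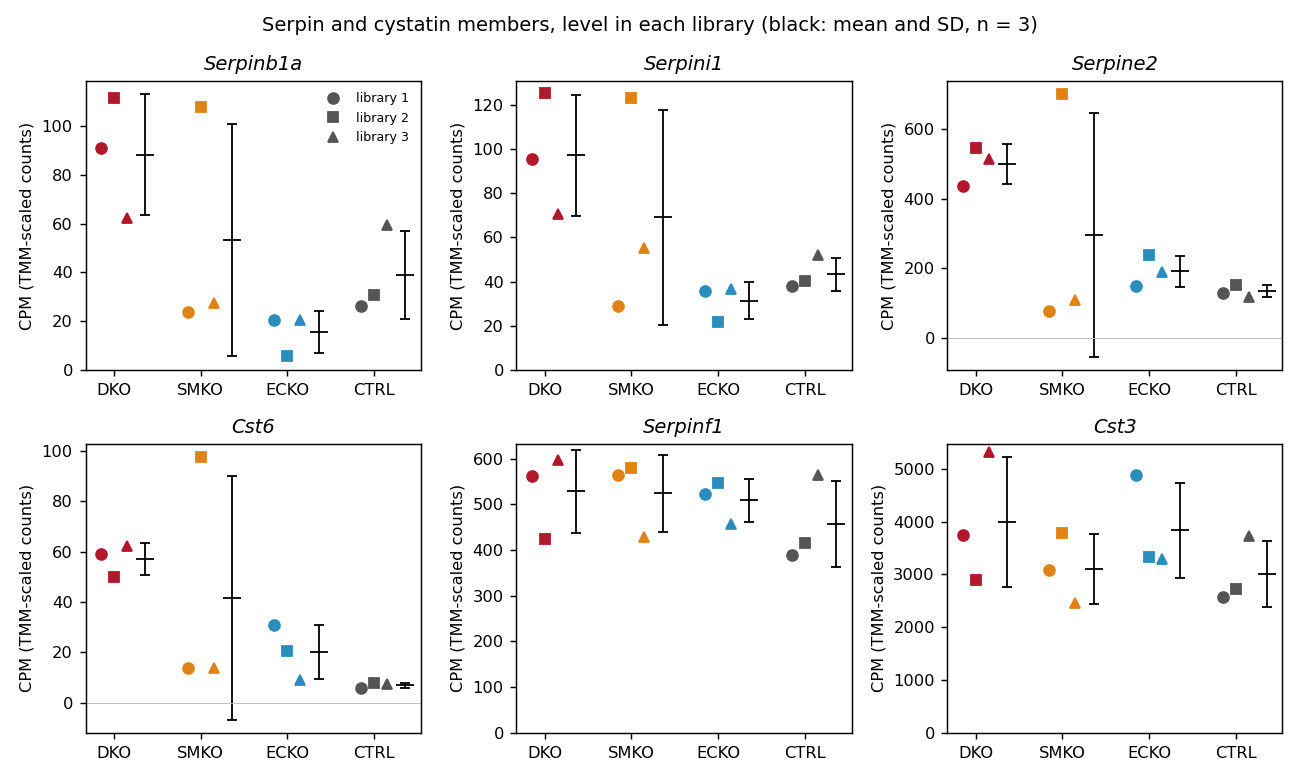
CPM of the 6 genes in each library of DKO, SMKO, ECKO and CTRL, with library 1 as a circle, 2 as a square and 3 as a triangle; black marks give the mean and SD (n = 3), whose lower end passes below 0 in SMKO for Serpine2 and Cst6. SMKO 2 stands with the DKO libraries for Serpinb1a, Serpini1, Serpine2 and Cst6, at 107.8, 123.2, 698.4 and 97.6 CPM, while Serpinf1 and Cst3 overlap in all groups.

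In all, 4 of the 6 genes had every DKO library above every CTRL library, where 9.7% of tested genes did, and 4 of 6 had every DKO library above every ECKO library, where 9.97% did. None of the 6 did so against SMKO (5.72% of tested genes). DKO had the highest mean CPM for all 6 genes, as for 29.7% of tested genes, but on the TPM scale ECKO was highest for Serpinf1 (419 ± 69.7 TPM, against 378 ± 20.9 TPM in DKO) and for Cst3 (7674 ± 342 TPM, against 7033 ± 1408 TPM in DKO). No gene of the 6 had all 3 DKO libraries above the other 9 libraries, as 1.19% of tested genes did. Since the genes were chosen on these differences, the counts are descriptions of the choice. The authors' deposited table gives linear fold changes for DKO against CTRL of 7.79 for Cst6, 3.66 for Serpine2, 2.54 for Serpinb1a, 2.36 for Serpini1, 1.33 for Cst3 and 1.18 for Serpinf1, the same order as here.

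SMKO 2 carried the mean of its group for the 4 variable genes. Relative to the mean of SMKO 1 and 3, its CPM was 7.40 times as high for Serpine2, 7.12 times for Cst6, 4.19 times for Serpinb1a and 2.93 times for Serpini1, but 1.36 times for Cst3 and 1.17 times for Serpinf1. Among all tested genes, the median of this ratio was 0.998 and 4.42% of genes exceeded a ratio of 3. SMKO 2 also had the lowest TMM factor of the 12 libraries (0.739), and a low factor raises CPM. By TPM it ranked 3 of 12 for Serpine2, Serpinb1a and Serpini1 and 2 for Cst6, but 11 for Cst3 and 12 for Serpinf1. Serpine2 had 311 TPM in SMKO 2, against 67.7 in SMKO 1 and 70.4 in SMKO 3, so the size of these ratios depends on the scale. Without SMKO 2, the described log2 fold change for DKO against SMKO was 2.50 ± 0.31 for Serpine2 (0.74 with it), 1.99 ± 0.61 for Cst6 (0.53 with it), 1.86 ± 0.47 for Serpinb1a (0.89 with it) and 1.56 ± 0.42 for Serpini1 (0.71 with it). The same library had the highest summed level of the 12 for 7 interstitial markers (46417 CPM), 9 macrophage markers (4047 CPM) and 6 melanocyte markers (1006 CPM), and mitochondrially encoded genes held 24.1% of its counts. That share was higher in SMKO 3, at 28.5%, and in CTRL 3, at 26.7%. The part of cell composition or RNA quality in its inhibitor levels was not tested.

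**Figure D3:**
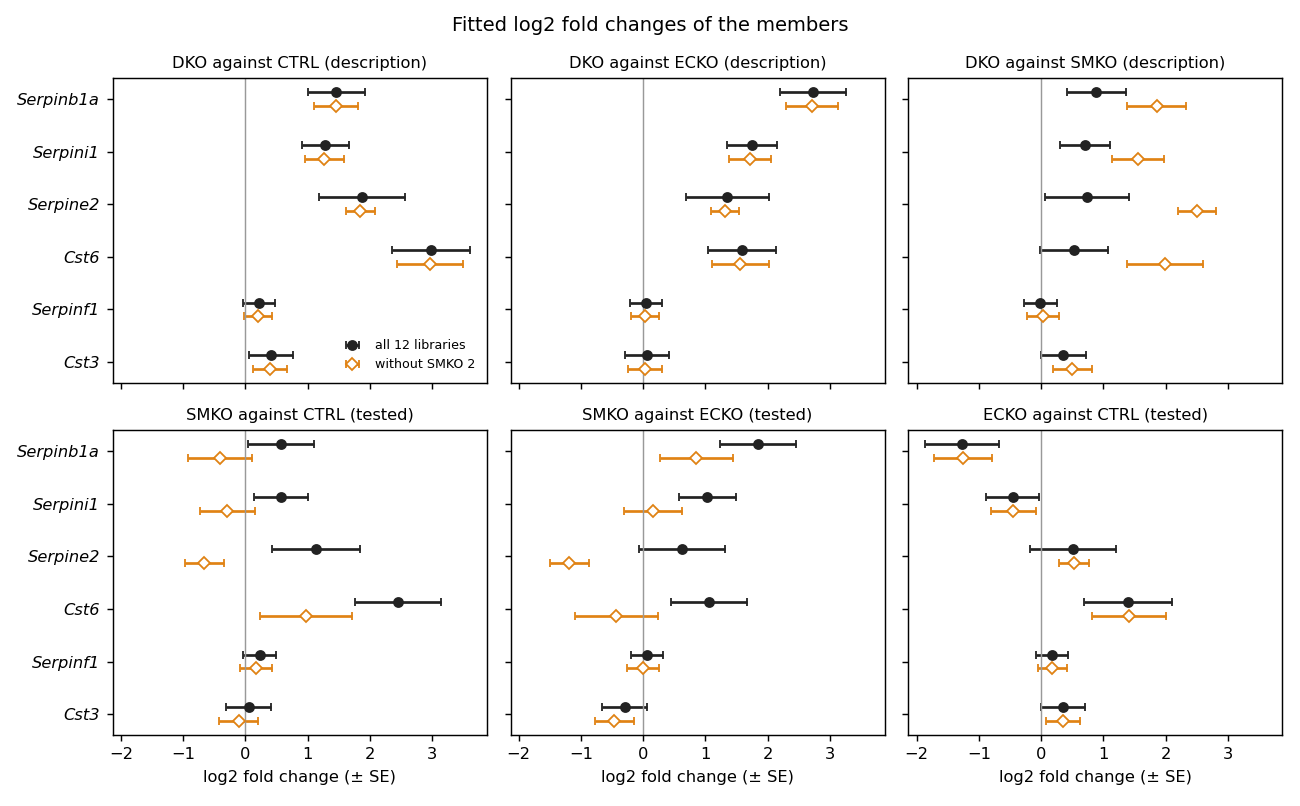
Log2 fold change ± SE of the 6 genes in the 6 pairs of groups, with all 12 libraries (filled circles) and without SMKO 2 (open diamonds); the upper row is description, the lower row holds the tested pairs. Leaving out SMKO 2 moves Serpine2 to 2.50 for DKO against SMKO and to -0.66 for SMKO against CTRL, and leaves ECKO against CTRL nearly where it was.

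Deletion in smooth muscle cells alone was compared with CTRL. None of the 6 genes passed edgeR's quasi-likelihood test at an adjusted p under 0.05, where 0.0% of all tested genes did. DESeq2 and limma-voom called 0 of 6, and each called 0 of the 6296 tested genes. By edgeR, 1 of 6 had an unadjusted p under 0.05, as did 5.48% of tested genes. That gene was Cst6, higher by 2.45 ± 0.70 on the log2 scale (95% interval 1.02 to 3.88, adjusted p = 0.703 by edgeR), with all 3 SMKO libraries above all 3 CTRL libraries, as in 4.11% of tested genes. Cst6 reached the filter's level in 3 DKO, 1 SMKO, 0 ECKO and 0 CTRL libraries. It was thus tested, here and below, only because of the DKO level it was chosen for, and its p-values are no independent support. SMKO 3 and CTRL 3 held 1 Cst6 count each. Over the alternatives the adjusted p of Cst6 ran from 0.0509 to 0.9997, and without SMKO 2 the log2 difference was 0.98 ± 0.74. Serpine2 was at 1.14 ± 0.71 with all libraries and at -0.66 ± 0.31 without SMKO 2, a change of sign, and Serpinb1a (0.57 ± 0.53 with it, -0.41 without it) and Serpini1 (0.57 ± 0.43 with it, -0.29 without it) also changed sign. Serpinf1 differed by 0.23 ± 0.26 (95% interval -0.30 to 0.77) and Cst3 by 0.05 ± 0.36 (-0.67 to 0.78), intervals that still allow changes in either direction.

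Deletion in endothelial cells alone gave 0 of 6 calls against CTRL by edgeR (0.0% of tested genes). At an unadjusted p under 0.05 there was 1 of 6 (4.34% of tested genes). DESeq2 called 0 of 6 (2 of the 6296 tested genes), and limma-voom 0 of 6 (0 of 6296). Serpinb1a was lower in all 3 ECKO libraries than in every CTRL library, by a log2 fold change of -1.27 ± 0.59 (95% interval -2.49 to -0.04, adjusted p = 0.998 by edgeR). Serpini1 was also lower in all 3 ECKO libraries, at -0.46 ± 0.43 (-1.34 to 0.43), and 6.07% of tested genes showed such a separation. Cst6 was higher in all 3 ECKO libraries than in every CTRL library, as were 5.73% of tested genes, at 1.39 ± 0.71 (-0.06 to 2.85, adjusted p = 0.998 by edgeR). The adjusted p of Serpinb1a ran from 0.585 to 0.99995 over the alternatives and that of Cst6 from 0.701 to 0.99995. Serpine2 (0.52 ± 0.69), Cst3 (0.35 ± 0.36) and Serpinf1 (0.17 ± 0.26) overlapped between the groups. The 6 melanocyte markers summed to 61.4 to 101 CPM in ECKO libraries, against 201 to 677 CPM in CTRL libraries, with no marker at 0 in either group; the part of this difference in the Serpinb1a and Serpini1 levels was not tested.

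The 2 single deletions were also compared with each other. Between SMKO and ECKO, edgeR called 0 of 6 genes (0.0% of tested genes), with 2 of 6 at an unadjusted p under 0.05 (3.80% of tested genes). DESeq2 called 0 of 6 (2 of the 6296 tested genes), and limma-voom 0 of 6 (1 of 6296). By CPM, Serpinb1a was higher in all 3 SMKO libraries than in every ECKO library, as were 3.97% of tested genes, at 1.84 ± 0.61 on the log2 scale (95% interval 0.57 to 3.11, adjusted p = 0.9996 by edgeR, range over the alternatives 0.111 to 1.000). That separation rested on 2 counts in SMKO 3 (27.6 CPM, against 20.7 CPM in ECKO 3). By TPM the groups overlapped, with 19.6 in SMKO 3 and 21.3 in ECKO 3. Serpini1 was at 1.03 ± 0.45 (0.10 to 1.96, adjusted p = 0.9996 by edgeR, range 0.149 to 1.000), with overlapping libraries. Without SMKO 2 these became 0.85 ± 0.59 for Serpinb1a and 0.16 ± 0.46 for Serpini1. Cst6 (1.06 ± 0.61), Serpine2 (0.62 ± 0.69), Serpinf1 (0.06 ± 0.26) and Cst3 (-0.30 ± 0.36) had intervals that included 0. Without SMKO 2, Serpine2 was at -1.19 ± 0.31 and Cst6 at -0.43 ± 0.66, both with the sign changed.

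Whether the DKO level departs from the sum of both single deletions was described by the interaction on the log2 scale, DKO − SMKO − ECKO + CTRL, which shares the DKO libraries used for the choice. It was 2.16 ± 0.76 for Serpinb1a and 1.17 ± 0.59 for Serpini1, whose mean ECKO levels lay below CTRL while their mean DKO levels lay above. For Serpine2 it was 0.22 ± 0.97, for Cst3 0.01 ± 0.50, for Serpinf1 -0.18 ± 0.37 and for Cst6 -0.86 ± 0.89, each within 1 SE of 0. These values also turned on SMKO 2. Without it the interaction was 3.12 ± 0.66 for Serpinb1a, 2.00 ± 0.55 for Serpini1, 1.98 ± 0.38 for Serpine2 and 0.58 ± 0.92 for Cst6, while Cst3 (0.14 ± 0.41) and Serpinf1 (-0.15 ± 0.34) stayed near 0.

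The profiles of the 6 genes over the 12 libraries were compared with each other and with the tested genes. Predicted gene models and genes named only by a clone were left out of the latter. Likeness was measured as the root-mean-square distance between log2 CPM profiles centred and scaled to unit SD, which is 0 for identical profiles. Of the 15 pairs among the 6 genes, Serpinb1a and Serpini1 were closest (distance 0.321), followed by Serpine2 and Cst6 (0.515), and Serpini1 and Serpinf1 were farthest apart (1.34). Serpinf1 and Cst3 were at 0.687 from each other. Over the tested genes so limited, the nearest to Serpine2 were Col5a2, a fibrillar collagen chain (0.261), Ldha (0.322) and Nkd2 (0.331). The nearest to Cst6 were Clic1 (0.266), the matricellular gene Sparc (0.301) and the collagen gene Col1a2 (0.310). Rcc2 (0.319), Serpini1 and Cux1 (0.478) were nearest to Serpinb1a, and the chloride channel gene Ano1 (0.307), Serpinb1a and Cux1 (0.413) to Serpini1. Cst3 was nearest to the matrix proteoglycan gene Prelp (0.407), to Mtch1 (0.450) and to Ecm1 (0.526), and Serpinf1 to Rnf10 (0.579), Ecm1 (0.584) and St3gal6 (0.596). The genes near Serpine2 had the same high SMKO 2 value; Col5a2 averaged 844 ± 109.8 CPM in DKO, 623 ± 421 CPM in SMKO, 527 ± 18.9 CPM in ECKO and 422 ± 47.6 CPM in CTRL. These points share depth and scaling, and the distances are descriptions.

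**Figure D4:**
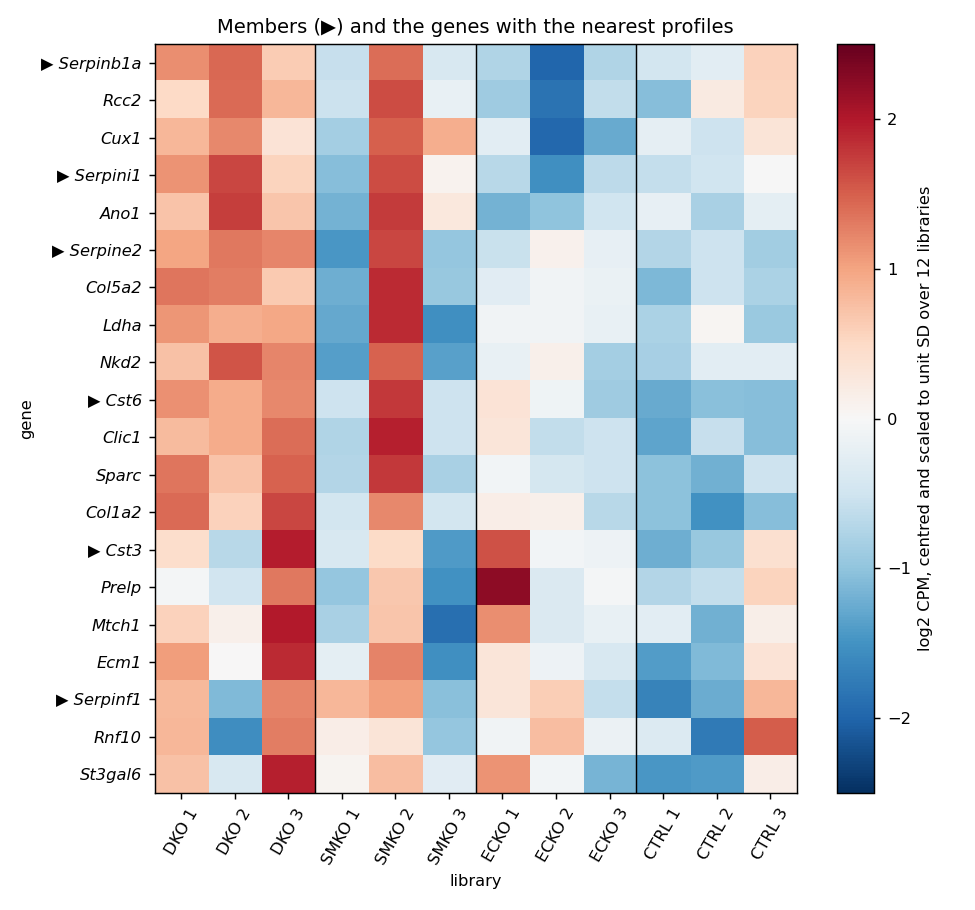
Log2 CPM of the 6 genes (triangles) and their nearest genes in each library, centred and scaled to unit SD over the 12 libraries; red is above and blue below a gene's own mean. The rows near Serpine2 and Cst6 are high in the 3 DKO libraries and SMKO 2, and the rows of Cst3 and Serpinf1 do not separate by group.

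The wider protease system was followed in 6 lists of 157 genes, of which 41 were tested. None of the 41 was called by edgeR, DESeq2 or limma-voom in any of the 6 pairs of groups. For DKO against CTRL, edgeR called 0.492% of all tested genes, and 6 of the 41 had an unadjusted p under 0.05, as did 11.6% of all tested genes. For DKO against ECKO, 0.572% were called, and 11 of 41 had such a p, as did 10.8% of tested genes. No tested gene was called by edgeR in the other 4 pairs (0.0%). Of the 6296 tested genes, DESeq2 called 42 for DKO against CTRL, 36 for DKO against ECKO and 3 for DKO against SMKO. It called 0 for SMKO against CTRL, 2 for ECKO against CTRL and 2 for SMKO against ECKO. Limma-voom called 21 for DKO against CTRL, 12 for DKO against ECKO and 1 for SMKO against ECKO. It called 0 for DKO against SMKO, SMKO against CTRL and ECKO against CTRL. By edgeR, an unadjusted p under 0.05 was found for 2 of 41 in DKO against SMKO (6.29% of tested genes) and 2 of 41 in SMKO against CTRL (5.48%). It was found for 1 of 41 in ECKO against CTRL (4.34%) and 1 of 41 in SMKO against ECKO (3.80%).

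Beyond the 4 serpins examined, 59 serpin genes stood in the table, 37 had a count and 7 were tested. Their median log2 difference was 0.70 for DKO against CTRL and 0.80 for DKO against ECKO, where the median of all tested genes was 0.02 in both, and 6 of 7 were above 0 in each. Serpina3n averaged 1433 ± 328 CPM in DKO, 602 ± 609 CPM in SMKO, 331 ± 188 CPM in ECKO and 545 ± 179 CPM in CTRL. It had 1707, 1069 and 1522 CPM in DKO libraries, 412, 1284 and 110.4 CPM in SMKO, 205, 547 and 241 CPM in ECKO, and 363, 550.2 and 721 CPM in CTRL. Its DKO libraries lay above all ECKO and CTRL libraries, and again SMKO 2 was the high SMKO library. The log2 fold change of Serpina3n was 1.41 ± 0.70 for DKO against CTRL (adjusted p = 0.498 by edgeR) and 2.09 ± 0.71 for DKO against ECKO (adjusted p = 0.317 by edgeR). Serpinh1 averaged 611 ± 66.7 CPM in DKO, 479 ± 236 CPM in SMKO, 397 ± 11.7 CPM in ECKO and 325 ± 71.5 CPM in CTRL, at 0.92 ± 0.29 for DKO against CTRL (adjusted p = 0.168 by edgeR). Serpinb6a, an intracellular serpin, was at -0.07 ± 0.26 in that pair.

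Of 23 other cystatin family genes, 6 had a count and 2 were tested. Cstb, an intracellular cathepsin inhibitor, was at -0.18 ± 0.37 and Ahsg, the circulating mineral-binding protein fetuin-A, at -0.04 ± 0.44 on the log2 scale for DKO against CTRL. Of the 27 other protease inhibitors, 10 were tested, with a median of 0.16 for DKO against CTRL; the most abundant were Aplp2 (0.08 ± 0.29), App (0.40 ± 0.31) and Pebp1 (0.44 ± 0.26).

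Among the proteases that the inhibitors act on, 10 of 11 cysteine cathepsin and legumain genes were tested, with a median of 0.18 for DKO against CTRL, and 7 of 10 above 0. The lysosomal proteases Ctsb (0.61 ± 0.32), Ctss (0.36 ± 0.30) and Ctsz (0.32 ± 0.26) were the most abundant, and Lgmn, which encodes the legumain that Cst6 inhibits, was at 0.15 ± 0.32. Only 5 of 24 serine protease genes were tested, with a median of -0.42 and 1 of 5 above 0. The targets of Serpinb1a were all but unmeasured, with 0 counts for Elane, 0 for Ctsg and 1 for Prtn3 among 4332563 counts in all. Of the targets of Serpine2 and Serpini1, F2 (thrombin) and Plau (urokinase) had 1 count each and Plg (plasminogen) had 2, whereas Plat (tissue plasminogen activator) was tested, at -0.45 ± 0.37 for DKO against CTRL and -0.93 ± 0.38 for SMKO against CTRL (adjusted p = 0.885 by edgeR). Transcript in the leaflet does not show protease that arrives with blood. Htra1, a secreted serine protease, was at 0.64 ± 0.25 for DKO against CTRL (adjusted p = 0.288 by edgeR) and 0.88 ± 0.26 for DKO against ECKO (adjusted p = 0.118 by edgeR), and Htra3 was at -0.74 ± 0.49 for DKO against CTRL.

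Of 13 receptors and partners, 7 were tested, with a median of 0.30 for DKO against CTRL and -0.05 for DKO against ECKO. Thbd (thrombomodulin, which binds thrombin on endothelium) was at 0.90 ± 0.32 for DKO against CTRL (adjusted p = 0.222 by edgeR), the thrombin receptor gene F2r at -0.43 ± 0.25, and the laminin receptor gene Rpsa at 0.30 ± 0.29. Lrp1, an endocytic receptor for serpin complexes, was at 0.14 ± 0.26.

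**Figure D5:**
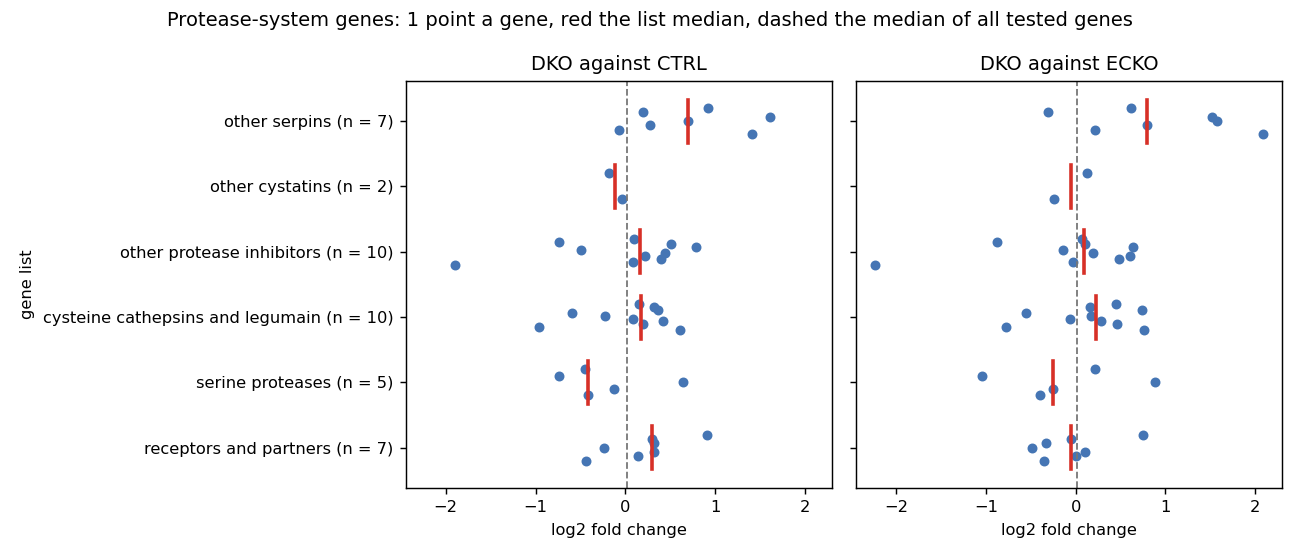
Fitted log2 fold change of each tested gene of the 6 lists for DKO against CTRL and DKO against ECKO; red bars are list medians and the dashed line is the median of all tested genes. The 7 other serpins have medians of 0.70 and 0.80, the 5 serine proteases -0.42 and -0.25, and no point was called by edgeR.

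Markers of other cell types were read beside these levels. The 7 interstitial markers summed to 26816 to 41142 CPM in DKO libraries, 18509 to 46417 CPM in SMKO, 24870 to 32288 CPM in ECKO and 28797 to 33990 CPM in CTRL. The 9 macrophage markers summed to 880 to 2157 CPM in DKO, 980 to 4047 CPM in SMKO, 859 to 1592 CPM in ECKO and 939 to 1241 CPM in CTRL. The 6 melanocyte markers summed to 384 to 903 CPM in DKO and 193 to 1006 CPM in SMKO, and the 5 smooth muscle markers to 328 to 384 CPM in DKO, 193 to 257 CPM in SMKO, 302 to 337 CPM in ECKO and 245 to 305 CPM in CTRL. The 8 endothelial markers summed to 676 to 867 CPM in DKO, 796 to 1311 CPM in SMKO, 1096 to 1290 CPM in ECKO and 847 to 1003 CPM in CTRL. The 5 red blood cell markers summed to 99.6 to 427 CPM in DKO, 497 to 2275 CPM in SMKO, 41.0 to 5561 CPM in ECKO and 202 to 3425 CPM in CTRL. The 7 heart muscle markers summed to 57.8 to 77.2 CPM in DKO, 39.1 to 110.4 CPM in SMKO, 10.2 to 744 CPM in ECKO, where ECKO 2 was the high library, and 24.8 to 59.4 CPM in CTRL. The 4 adipocyte markers summed to 3.98 to 8.29 CPM in DKO and 5.14 to 41.4 CPM in SMKO. Their sums were 2.30 to 15.4 CPM in ECKO and 7.43 to 10.2 CPM in CTRL. Of these 4 markers, 1 (Cfd) was at 0 in every library. The part of cell composition in the levels of the 6 genes was not tested.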

How the data were processed

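RNA of laser-microdissected leaflets was measured in 12 libraries. Per the labels' protocols, cDNA was amplified, tagmented with a kit that keeps no strand, and read as paired ends. The authors deposited 1 table that holds, per the file headers, whole-number total counts, TPM and a signed fold change of DKO against each other group. The genome build was GRCm39, per the submitters' processing notes, and the sources used here name no aligner, counter or annotation. No gene of the 6 shares exons with another protein-coding gene in the older annotation used here.

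Counts were filtered with filterByExpr (a minimum of 10 counts, adjusted for library size, in 3 or more libraries), scaled by TMM and tested with edgeR 4.0.16 (quasi-likelihood F test, R 4.3.3) in 1 model of the 12 libraries, with Benjamini-Hochberg adjustment over 6296 genes. A call is an adjusted p under 0.05. SE is the size of the log2 fold change divided by the root of F, and intervals use the test's degrees of freedom. CPM values are TMM-scaled counts. Deposited TPM served for levels between genes and for ratios within a library. The scripts were tested on simulated data. DESeq2 1.42.0 and limma 3.58.1 (voom) were alternatives, with other scalings, no filter, a depth covariate, a replicate block and single libraries left out.

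The genes, lists and naming rule were chosen with earlier results of these data known. The text names all 6 genes, the 3 most abundant tested genes of each list and the 3 nearest profiles; Lgmn, Lrp1, the paralogues and the unmeasured targets were added for their roles or after their values were seen. Poisson intervals of pooled counts cover counting error only, since amplified reads without molecular identifiers do not count molecules; intervals of log2 fold changes cover the spread between libraries. As a check for a library deposited more than once, libraries of a group were compared; chi-square per degree of freedom was 1.85 to 9.64, and each was counted as a replicate.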

Additional observations from a re-analysis of the deposited data

How the results depend on the processing

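None of the 6 inhibitor genes was called by edgeR, DESeq2 or limma-voom in SMKO against CTRL, ECKO against CTRL or SMKO against ECKO, over the settings tried. Of 378 log2 fold changes in these pairs under other settings, 15 had a changed sign, and 7 of the 15 came from leaving out SMKO 2. Leaving out each library in turn gave SMKO against CTRL log2 fold changes of -0.41 to 1.31 for Serpinb1a, -0.29 to 1.29 for Serpini1, -0.66 to 1.69 for Serpine2 and -0.11 to 0.24 for Cst3, with the lowest value always the one without SMKO 2. The Cst3 value was also -0.12 with library totals only, -0.0382 with limma-voom and -0.00483 with the depth covariate. It was -0.05 without CTRL 1 and -0.01 without CTRL 2. For SMKO against ECKO, the same step gave -1.19 to 1.17 for Serpine2 and -0.43 to 1.90 for Cst6, both lowest without SMKO 2, and -0.0139 to 0.16 for Serpinf1, lowest without ECKO 3 (-0.0065 without SMKO 2). With limma-voom Serpine2 was at -0.0425, and with library totals only Serpinf1 was at -0.13. With that scaling the median of all genes was -0.20 for SMKO against CTRL and -0.19 for SMKO against ECKO.

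Between DKO and SMKO, the described values without SMKO 1 were -0.31 for Cst6 and close to 0 for Serpini1. Of the 41 list genes, 2 were called for DKO against CTRL (Thbd and Serpina3n) and 4 for DKO against ECKO (Htra3, Htra1 and Serpina3n among them) when only the groups compared were fitted. Over all 6296 tested genes, these fits called 104 and 189, against 31 and 36 in the main fit. Leaving out libraries gave 0 to 2 for DKO against CTRL (Thbd and Serpinh1 without SMKO 2) and 0 to 1 for DKO against SMKO (Thbd without SMKO 2). Without SMKO 2, calls over all 6296 genes were 127 for DKO against CTRL and 110 for DKO against SMKO. The main fit gave 31 and 0, so calls rose over all genes and not in these lists alone. The cause was not tested.

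The replicate numbers were not taken to pair the libraries, because same-number correlations of deviations ran from -0.14 to 0.18 over 18 pairs and so were not all above 0.1. Their mean was 0.0562, against -0.0264 for different numbers, and 8 of 12 libraries correlated best with their own number, a hint of pairing from the data and not from the design. With a replicate block, 0 of the 6 genes were called in the 3 tested pairs and 0 of the list genes in any pair, and calls over all genes were 50 for DKO against CTRL and 50 for DKO against ECKO, against 31 and 36 without it. Cst6 and Serpinb1a had 1 to 56 counts in a library, so depth limits these values.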
